A study of Mus musculus with 2 samples.

Results

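Hepatokines are proteins that the liver releases into the blood and that act on other tissues. Described here is a set of 10 named genes of this kind, 6 of which have a value: Angptl4, Lect2, Inhbc, Inhbe, Gdf15 and Enho. These 6 were found by their symbols among the 8551 genes of the deposited table, and Fgf21, Angptl6, Inhba and Inhbb were not analysed here. Their rows were taken by name, and the set was drawn up with earlier results of these data known. The study compared liver RNA of male C57BL/6 wild type mice (normal) with that of male db/db mice (diabetic), whose leptin receptor is defective and which develop obesity and high blood glucose. Both groups were 9 weeks old, were fed chow freely, and had their livers taken about 3 h into the light phase. The labels give the C57BL/6 background for both groups. The mice came from a pair of suppliers, and the methods do not say which group came from which, so supplier and genotype cannot be told apart. There is 1 library per group, and whether the RNA of several mice was pooled is not stated, so none of the differences could be checked against replicates.

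Several of these proteins belong to the transforming growth factor β (TGF-β) family. Inhbc and Inhbe encode the βC and βE subunits of activins, which are made mainly in the liver, and Inhba and Inhbb encode the βA and βB subunits. Activin precursors are cut by proprotein convertases, the mature dimers bind activin receptors, and receptor-activated Smad proteins carry the signal to the nucleus. Gdf15 encodes a distant member of the family, a stress-induced hormone that reduces food intake through a receptor of the hindbrain. Outside the family, Angptl4 encodes an inhibitor of lipoprotein lipase, Lect2 a chemotactic factor secreted by hepatocytes, and Enho the peptide adropin, whose expression in liver responds to feeding and dietary fat. Fgf21 encodes the fasting hormone of the liver, which signals through the co-receptor β-Klotho.

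Each value rests on short tags that begin at the recognition site of the enzyme DpnII, GATC, which was used to cut the cDNA. The tag that such a library is designed to read starts at the site nearest the 3′ end of a transcript. These expected tags were read from the transcript sequences of GENCODE M21, cut at the 3′ end of the RefSeq gene. They are shown because such a library is designed to count them. The first 20 bases of each are printed, with the DpnII site in capitals.

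Angptl4: GATCcagaaaacatgggctc
Lect2: GATCttctaaattcaaagcc
Inhbc: GATCcacctctaaagagagt
Inhbe: GATCcatactgacacccaat
Gdf15: GATCaaagcacgcctgcatg
Enho: GATCcaagaagtcagtcggc

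The expected tag lay in the coding sequence for Gdf15 and in the 3′ UTR for the other 5 genes, between 225 bases (Lect2) and 778 bases (Inhbe) from the 3′ end. Each of the 6 tags began at a DpnII site of 1 gene only among all GENCODE M21 transcripts, with 0 other genes, so the tags of the related genes Inhbc and Inhbe differ. In GENCODE M21 the transcripts of Inhbe and Angptl4 run 545 and 1150 bases past the end of the RefSeq gene and hold 2 and 4 further sites there. The labels say that the cDNA was primed with random hexamers, and which sites gave the counted tags was not tested. For the genes with no value, the transcripts of Fgf21, Inhba and Inhbb held 4, 5 and 7 sites. The Angptl6 transcript, 1582 bases long, held 0 DpnII sites, as did 1.71% of the 28609 protein-coding transcripts with a RefSeq match.

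**Figure D1:**
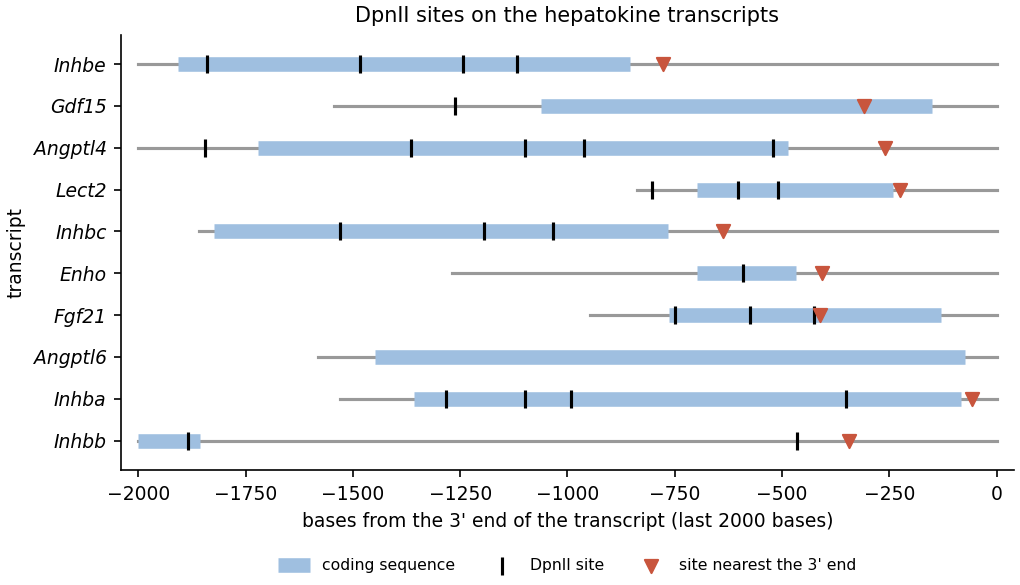
DpnII sites on the transcripts of the 10 hepatokine genes, with the position in bases from the 3′ end on the x axis and 1 transcript per row (the longer of the 2 Gdf15 transcripts is drawn). Black ticks are sites, blue boxes are coding sequence, and a red triangle marks the site nearest the 3′ end, which lies 225 to 778 bases from the end in the 6 genes with a value and is missing in Angptl6.

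TPM, the unit of the deposited table, is the number of tags of a gene scaled to all clean tags of its library. One read was worth 0.0973 TPM in normal and 0.0740 TPM in diabetic liver, which follows from the equal steps of the values and gives 10278531 and 13508232 clean tags. The 6 genes had 8 to 2136 reads per library. Intervals of 95% come from these reads and cover counting error only, not differences between mice. The tags carry no molecular identifiers and may be PCR copies of one molecule, so the intervals may be too narrow. A tag comes from one site of a transcript and not from its whole length, so levels were compared between the libraries and not between genes. A gene is called higher or lower here when its TPM differed at least 1.5-fold, the fold threshold of the study. The study also asked for a false discovery rate (FDR) under 0.001, which was computed here with an exact binomial test on the reads, a test that compares the 2 libraries and not the conditions.

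Of the 6 genes, 4 were higher in the diabetic library (Inhbe, Gdf15, Angptl4 and Lect2), 1 was lower (Enho) and 1 lay within 1.5-fold (Inhbc). Over all 8551 listed genes, 34.4% were higher and 15.3% were lower by the same rule. With the FDR in addition the counts of hepatokines were again 4 and 1, beside 22.5% and 8.07% of all listed genes. The median log2 ratio (diabetic over normal) was 0.70 over the 6 genes and 0.25 over all listed genes. Because the typical gene was itself higher in the diabetic library, 4 other scalings were tried, which lowered each log2 ratio by 0.25 to 0.31. Under each of them Inhbe and Gdf15 stayed higher and Enho lower, while Angptl4 and Lect2 fell below 1.5-fold. By fold alone, 1874 to 2054 of the 8551 listed genes were then higher and 2022 to 2189 lower. These numbers are the background of all counts given here under the other scalings.

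**Figure D2:**
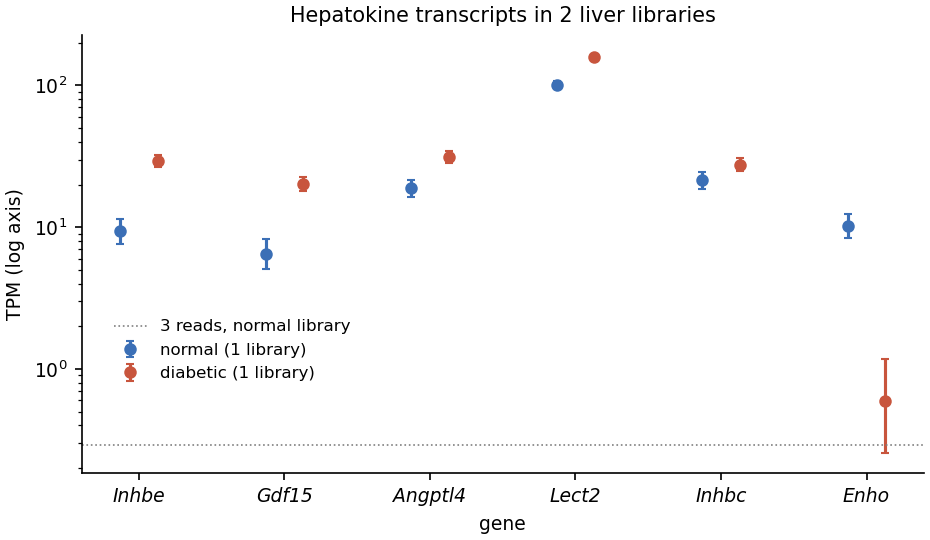
TPM of the 6 hepatokine genes in the normal and the diabetic library (log axis), with 95% Poisson intervals of the reads as error bars and 1 library per group. The intervals of the 2 libraries overlap for none of the 6 genes, although they lie closest for Inhbc, and the dotted line is the level of 3 reads in the normal library.

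The activin subunit genes Inhbe and Inhbc differed in their ratios. Inhbe (Entrez 16326) measured 9.44 TPM in normal and 29.5 TPM in diabetic liver, with 97 and 399 reads. It was thus upregulated to 3.13-fold (95% interval, 2.50 to 3.95), or a log2 ratio of 1.65. Inhbc (Entrez 16325) measured 21.4 TPM in normal and 27.6 TPM in diabetic liver, with 220 and 373 reads. Its 1.29-fold difference (95% interval, 1.09 to 1.53) lay under the fold threshold, and its FDR in the exact binomial test was 0.00658. Under the other scalings the ratio of Inhbc was between 1.04-fold and 1.08-fold, and that of Inhbe between 2.53-fold and 2.63-fold.

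The change in the ratio of Inhbe to Inhbc reads does not depend on any scaling, since both are counted in the same library. For each Inhbc read there were 0.441 Inhbe reads in normal liver and 1.07 in diabetic liver. Because the tags of the 2 genes need not be read equally well, these values do not give the balance of the subunits, and only their change between the libraries was read. The ratio of Inhbe to Inhbc was 2.42 times as high in the diabetic library, with an exact 95% interval of 1.82 to 3.24.

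Inhbe and Inhbc are neighbours on the same strand of chromosome 10, with no other gene between them in the RefSeq annotation. Their promoters, 250 bases before to 50 bases after the start (RefSeq, GRCm38.p6, both on the minus strand), are shown because these adjacent genes differed in ratio. Capitals mark a match to TGATGNAA on either strand, the core of the composite element that C/EBP and ATF factors such as Atf4 bind.

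Inhbe (chr10:127351799-127352098): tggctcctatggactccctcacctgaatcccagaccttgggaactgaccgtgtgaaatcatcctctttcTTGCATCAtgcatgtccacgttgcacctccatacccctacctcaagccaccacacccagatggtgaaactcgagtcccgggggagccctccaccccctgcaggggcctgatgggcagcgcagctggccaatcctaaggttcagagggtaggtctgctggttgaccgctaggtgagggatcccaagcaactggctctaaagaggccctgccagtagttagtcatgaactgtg
Inhbc (chr10:127370499-127370798): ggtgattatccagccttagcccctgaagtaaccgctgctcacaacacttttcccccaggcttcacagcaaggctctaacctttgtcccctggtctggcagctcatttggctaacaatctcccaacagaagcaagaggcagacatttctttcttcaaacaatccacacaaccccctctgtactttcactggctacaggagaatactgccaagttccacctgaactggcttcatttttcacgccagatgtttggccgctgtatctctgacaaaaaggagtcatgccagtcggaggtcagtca

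The Inhbe window held 1 match, read as TTGCATCA on the printed strand with its first base at position -181 from the start, and the Inhbc window held 0. Matches to TGATGNAA were found in 3.97% of the 32851 promoter windows of the table, and matches to its stricter form TGATGCAA in 0.895%. Of the 8 hepatokine genes with a promoter window in the table, 2 held the stricter form, Inhbe and Fgf21, beside 1.03% of all 27025 genes with a window. Neither of the 2 windows of Gdf15 held a match to TGATGNAA. The cyclic AMP response element TGACGTCA was in 0 of the 8 genes, in 2.03% of all genes and in 1.79% of all windows. A pair of AGGTCA copies 1 base apart was also searched for and was in 0 of the 8 genes and in 0.0481% of all genes. These matches describe letters in a window and not binding.

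Gdf15 changed nearly as much as Inhbe. Gdf15 (Entrez 23886) measured 6.52 TPM in normal and 20.2 TPM in diabetic liver, with 67 and 273 reads. This 3.10-fold increase (95% interval, 2.37 to 4.11) corresponds to a log2 ratio of 1.63, and it was 2.51-fold to 2.60-fold under the other scalings. A higher ratio than that of Gdf15 was found for 6.49% of the other listed genes, and for Inhbe this share was 6.27%. Among genes whose mean TPM was within 2-fold of their own, the shares were 3.92% of 2704 genes for Gdf15 and 3.39% of 2302 genes for Inhbe.

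Angptl4 (Entrez 57875), the lipoprotein lipase inhibitor, measured 18.8 TPM in normal and 31.5 TPM in diabetic liver. With 193 and 425 reads it was upregulated to 1.68-fold (95% interval, 1.41 to 2.00). Lect2 (Entrez 16841) measured 100.4 TPM in normal and 158 TPM in diabetic liver, and with 1032 and 2136 reads it was upregulated to 1.57-fold (1.46 to 1.70). Both intervals include the threshold of 1.5-fold. Under the other scalings Angptl4 was 1.36-fold to 1.41-fold and Lect2 1.27-fold to 1.32-fold higher. A higher ratio was found for 27.6% of the other listed genes in the case of Angptl4 and for 31.1% in the case of Lect2, so that both lay within the range of many genes.

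Enho was the hepatokine with the widest difference and the fewest reads. Enho (Entrez 69638) measured 10.2 TPM in normal and 0.59 TPM in diabetic liver, with 105 and 8 reads. It was 17.3-fold lower in the diabetic library, with a wide 95% interval of 8.44-fold to 41.0-fold, and its log2 ratio was -4.11. With a pseudocount of 1 TPM, above the level in the diabetic library, the log2 ratio was -2.82. Under the other scalings the log2 ratio was between -4.42 and -4.37. Only 15 of the other listed genes had a lower ratio, and 4 of the 3193 genes whose mean TPM was within 2-fold of that of Enho.

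**Figure D3:**
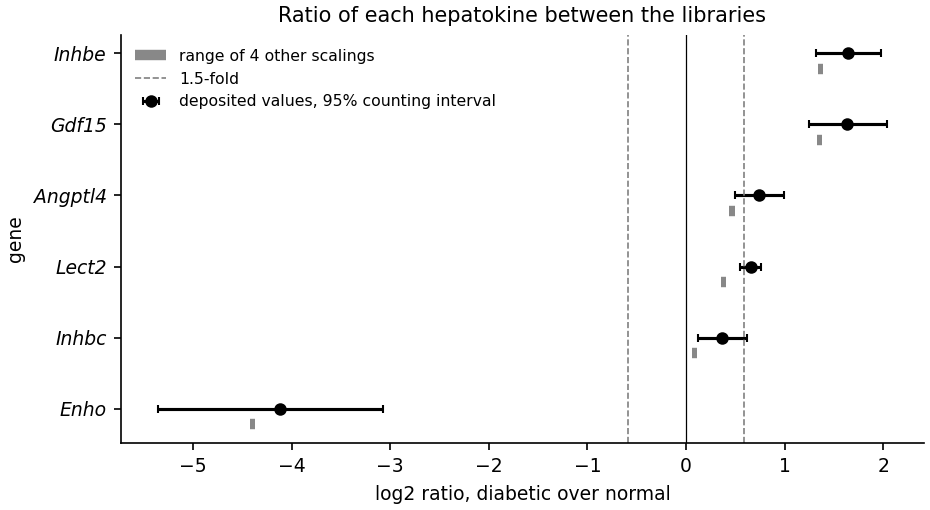
Log2 ratio of each hepatokine gene, diabetic over normal, as deposited (points, with 95% counting intervals) and the range under the 4 other scalings (grey bars). Inhbe and Gdf15 lie right of the 1.5-fold line under each scaling and Enho left of it, while Angptl4 and Lect2 pass the line only as deposited.

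**Figure D4:**
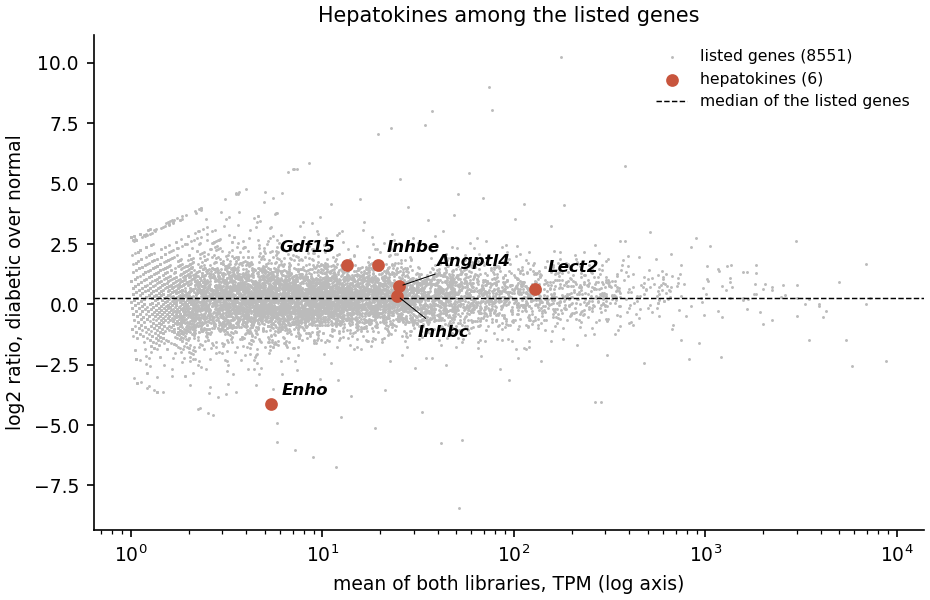
Log2 ratio (diabetic over normal) against the mean TPM of both libraries (log axis) for the 8551 listed genes in grey and the 6 hepatokine genes in red. The dashed line is the median of 0.25, and Enho at -4.11 stands below nearly all genes of its abundance.

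Since the tissue is whole liver, fewer cells of a type and less RNA per cell cannot be told apart. Beside the marker counts below, 34.4% of all listed genes were higher and 15.3% lower as deposited. With the other scalings, 1874 to 2054 of the 8551 listed genes were higher and 2022 to 2189 lower. Of the hepatocyte markers that had a value, 3 of 5 lay within 1.5-fold, among them Alb at 6801 and 6912 TPM, while Apob was lower (log2 ratio -2.45) and Cps1 higher (1.28). Summed over these 5 genes the level was 9755 TPM in normal and 9148 TPM in diabetic liver, and most of each sum was Alb. Under the other scalings 1 of the 5 was higher and 1 lower, as with the deposited values. Of 8 Kupffer cell markers 4 were lower and 1 higher, with sums of 327 and 194 TPM, and under the other scalings 5 were lower and 0 higher. Most of the difference between these sums was that of C1qa, at 176 and 50.7 TPM. Of 8 markers of sinusoidal endothelial cells 2 were higher and 1 lower, with sums of 123 and 113 TPM. Under the other scalings 0 to 2 of these were higher and 2 lower. Of 8 markers of stellate cells 1 was higher (Col1a1) and 2 were lower (Reln and Hhip), with sums of 124 and 162 TPM, to which Dcn, within 1.5-fold, gave 56.9 and 84.4 TPM. Of the 3 cholangiocyte markers with a value 1 was higher, Spp1 (log2 ratio 0.85), while Epcam and Krt7 lay within 1.5-fold. The sums of the 3 were 61.5 and 107 TPM, to which Spp1 gave 57.2 and 103 TPM. Under the other scalings 0 to 1 of the 3 markers were higher. Among adipocyte markers, Fabp4 had 88 and 359 reads and Cidec 2 and 176 reads, both also expressed by fatty hepatocytes, and Adipoq, Lep and Plin1 were not analysed here. The 1 lymphocyte marker (Cd79b, log2 ratio -0.94) and the 1 exocrine pancreas marker with a value (Cela2a, 21 and 3 reads) were lower, and the 1 erythroid marker, Alas2, lay within 1.5-fold. The part of cell composition in the ratios of the hepatokines was not tested.

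Of 8 receptor genes of the TGF-β family with a value, 5 were higher and 1 lower as deposited, beside 34.4% and 15.3% of all listed genes, and the median log2 ratio was 0.70. With the FDR 3 were higher and 1 lower, beside 22.5% and 8.07% of all listed genes, and the other scalings also gave 3 and 1 by fold alone. Tgfbr1, the type I receptor of TGF-β, measured 2.72 TPM in normal and 7.33 TPM in diabetic liver (log2 ratio 1.43). Bmpr1a, a type I receptor of bone morphogenetic proteins (BMPs), had a log2 ratio of 1.12 with 32 and 91 reads. Hfe2, which encodes the BMP co-receptor hemojuvelin, was at 21.4 and 32.4 TPM (0.60), and Eng, the endothelial co-receptor endoglin, was 1.51-fold lower, with 233 and 203 reads (-0.59). The ratio of Hfe2 was below 1.5-fold under the other scalings. Acvr2a, an activin type II receptor, had 30 and 35 reads and a log2 ratio of -0.17 (95% interval, -0.92 to 0.58), so that a difference was not detectable at this depth. Acvr1, a type I receptor of the family, had 14 and 51 reads and a log2 ratio of 1.47 (95% interval, 0.60 to 2.44). It did not meet the FDR criterion. Acvr2a and Acvr1 were named after their values were seen, Acvr2a because activins bind it.

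Of 6 other ligand genes of the family with a value, 4 were lower and 1 higher, beside 15.3% and 34.4% of all listed genes, with a median log2 ratio of -0.83. With the FDR 3 were lower and 1 higher, beside 8.07% and 22.5% of all listed genes. Bmp4 measured 17.4 TPM in normal and 2.07 TPM in diabetic liver, a log2 ratio of -3.07 (95% interval, -3.70 to -2.49). Bmp2, a BMP that endothelial cells of the liver make, was at 10.3 and 5.33 TPM (-0.95), and Tgfb1, which did not meet the FDR criterion, was at 5.16 and 3.18 TPM (-0.70). Bmp1, which has the name of a ligand but encodes a procollagen protease, was higher at 11.9 and 20.3 TPM. With the other scalings Bmp1 fell below 1.5-fold and the 4 lower genes stayed lower.

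Among 13 inhibitors of the family 3 were lower and 2 higher, beside 15.3% and 34.4% of all listed genes by fold alone. With the FDR 2 were lower and 0 higher, beside 8.07% and 22.5% of all listed genes. The median log2 ratio of 0.28 was near that of all listed genes. Fst encodes follistatin, which binds and neutralises activins, and it was 4.48-fold lower, with 75 reads in normal and 22 reads in diabetic liver. Its log2 ratio was -2.16 (95% interval, -2.92 to -1.46). Ski and Ltbp3 had only 31 and 23 reads and 9 and 20 reads, and neither met the FDR criterion. With the other scalings 1 inhibitor was higher and 4 to 5 were lower.

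Of 9 Smad genes and direct targets 4 were higher and 3 lower, beside 34.4% and 15.3% of all listed genes. With the FDR 2 were higher and 2 lower, beside 22.5% and 8.07% of all listed genes. Smad4, the common partner of all receptor-activated Smads, had 123 reads in normal and 32 reads in diabetic liver and was 5.05-fold lower. Hamp2, a paralog of the iron hormone hepcidin, was at 113 and 912 TPM, a log2 ratio of 3.02, and whether tags common to it and Hamp could have been counted for either is not stated. Id1 was higher (2.30-fold) and Id3 lower (log2 ratio -0.99), although both are BMP target genes. The other scalings left 3 genes higher and 4 lower.

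The proprotein convertases had a median log2 ratio of 1.42, and 3 of 4 were higher, beside 34.4% of all listed genes. With the FDR 3 were again higher, beside 22.5%, and by fold alone 3 were higher under each scaling. Only Pcsk6 and Furin had a mean of at least 5 TPM. Of this pair 1 was higher, beside 1773 of the 5309 listed genes with such a mean, and its median log2 ratio was 0.71. Pcsk6 measured 25.2 TPM in normal and 62.4 TPM in diabetic liver (log2 ratio 1.31), and Pcsk7 and Pcsk5 had 14 and 53 reads and 6 and 60 reads. Furin, the best known of them, lay within 1.5-fold (log2 ratio 0.11, 95% interval -0.04 to 0.26) and was named after its values were seen.

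For the other hepatokines, 6 receptor genes had a value, with a median log2 ratio of -0.04. Of these 1 was higher and 1 lower, beside 34.4% and 15.3% of all listed genes. Met, the hepatocyte growth factor receptor, to which the Lect2 protein binds, was at 13.4 and 23.5 TPM (log2 ratio 0.81), and Tie1, an endothelial receptor also bound by Lect2, at 9.53 and 5.03 TPM (-0.92). Each of the other scalings gave 0 higher and 2 lower, since Met fell below 1.5-fold and Fgfr2, named after its values were seen, passed it (log2 ratio -0.50 as deposited and -0.81 to -0.75 with these scalings). Klb, which encodes the co-receptor of Fgf21, had 21 and 39 reads, too few for its log2 ratio of 0.50 (95% interval, -0.30 to 1.34) to be told from 0. Klb was named after its values were seen.

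Genes of the lipoprotein lipase system around Angptl4 differed in both directions. Of 11 genes 6 were higher and 2 lower, beside 34.4% and 15.3% of all listed genes, and the median log2 ratio was 0.80. With the FDR 5 were higher and 2 lower, beside 22.5% and 8.07% of all listed genes. The other scalings left 3 to 5 of the 11 higher and 2 lower. Apoc2, the activator of the lipase, measured 506 TPM in normal and 1528 TPM in diabetic liver (log2 ratio 1.59), and Apoc3, an inhibitor, was at 1865 and 3240 TPM (0.80). Lipc, hepatic lipase, was lower at 281 and 167 TPM (-0.75). Lpl itself was at 15.6 and 9.18 TPM (-0.76), and Angptl8, listed as Gm6484, at 118 and 154 TPM (0.38), both named after their values were seen.

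Angptl4 and Fgf21 are known targets of the fatty acid receptor PPARα, whose part in the ratio of Angptl4 was not tested. Most of the pathway genes with a value were higher. Of 13 with a value, 11 were higher and 0 lower, beside 34.4% and 15.3% of all listed genes, with a median log2 ratio of 1.17. With the FDR 10 were higher and 0 lower, beside 22.5% and 8.07% of all listed genes. By fold alone, 9 stayed higher under the other scalings. The lipid droplet gene Plin2 measured 247 TPM in normal and 592 TPM in diabetic liver (log2 ratio 1.26), and Cyp4a14, a fatty acid hydroxylase with close paralogs, was at 14.1 and 743 TPM (5.72). The log2 ratio of Angptl4, 0.74, was below the median of these genes, as that of Cpt2 was (0.73), and both were below 1.5-fold under the other scalings.

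Gdf15, Fgf21 and Inhbe are known targets of the integrated stress response, in which Atf4 and Ddit3 activate genes. Its part in the ratios of Gdf15 and Inhbe was not tested. Of 14 genes of this response with a value, 6 were higher and 2 lower, beside 34.4% and 15.3% of all listed genes, and the median log2 ratio of 0.15 was below that of all listed genes. Each of the other scalings gave 4 higher and 3 lower. Ddit3 measured 3.02 TPM in normal and 9.33 TPM in diabetic liver, a log2 ratio of 1.63 (95% interval, 1.05 to 2.25). Cebpb was at 120 and 188 TPM (0.65) and fell below 1.5-fold under the other scalings. Trib3 and Chac1 had only 15 and 39 reads and 30 and 26 reads. Atf4 itself was at 116 and 112 TPM (log2 ratio -0.05), named after its values were seen. With the FDR criterion 3 of the 14 genes were higher and 0 lower, beside 22.5% and 8.07% of all listed genes. The 3 were Cebpb, Ddit3 and Vldlr, the last named after its values were seen. Vldlr had 0 reads in normal and 34 reads in diabetic liver. It is listed only through its diabetic value, since no listed gene had a mean below 1 TPM, so its call is not independent of that filter.

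**Figure D5:**
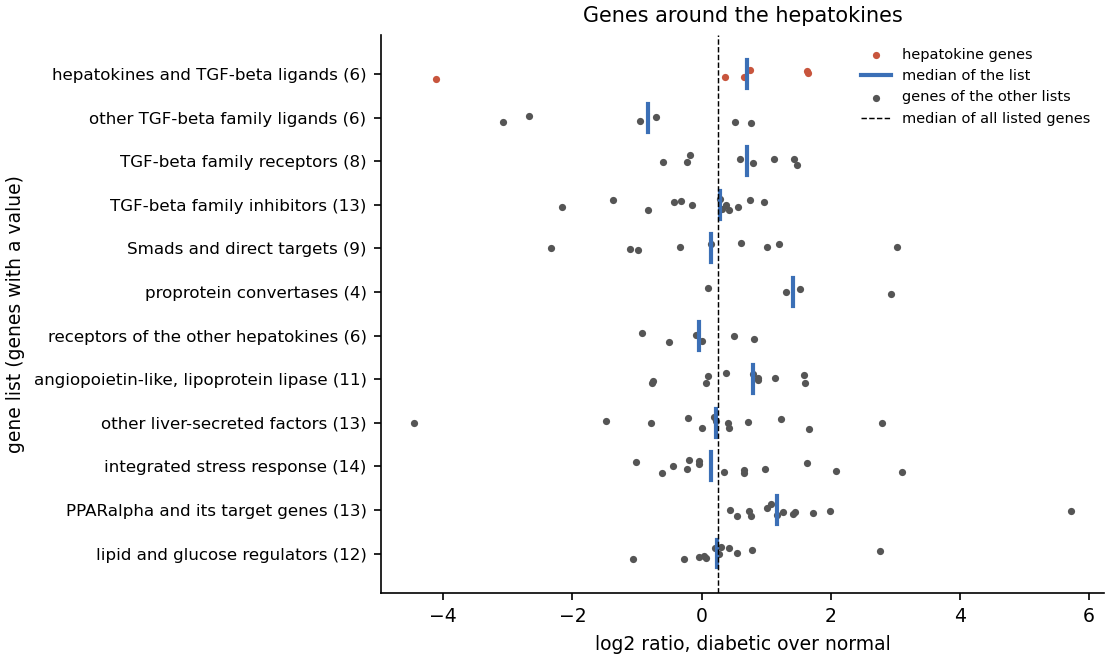
Log2 ratio (diabetic over normal) of each gene in the hepatokine set (red) and in 11 lists of related genes (dark grey), with the number of genes with a value in parentheses, the median of each list in blue and that of all listed genes as a dashed line. The PPARα targets lie right of the dashed line, with a median of 1.17, while the integrated stress response and the TGF-β inhibitors spread to both sides of it.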

How the data were processed

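Poly(A) RNA of mouse liver, 1 library per group, was profiled with DpnII digital gene expression tags. The authors removed adaptors, compared high quality clean tags with RefSeq and deposited, per gene, values that they call TPM, which are RPM values (scaled to all clean tags of a library), rounded to 2 decimals, with 0.01 for no tag. No listed gene had a mean below 1 TPM (lowest, 1.005). A gene below 1 TPM in 1 library is thus listed only through the other library, and Enho, Pcsk5, Cidec, Cela2a and Vldlr are among such genes. The processing notes name mm9. The aligner and the treatment of tags common to several genes are not given in the sources used here. Samples were grouped by their genotype labels.

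Dividing each deposited value by the step of its library gave reads, which were whole for 8513 of 8513 values (normal) and 8536 of 8537 values (diabetic) within 0.0051 TPM. Ratios are those of the deposited TPM, and a library with 3 reads or fewer was set to 3 reads. Intervals of ratios are Clopper-Pearson intervals (95%), and the ratio of Inhbe to Inhbc has the exact interval of a conditional odds ratio. The FDR is that of a two-sided exact binomial test (doubled smaller tail) with Benjamini-Hochberg adjustment over all 8551 genes. No count model was fitted, since each group has 1 library. Scalings were the sum of listed genes, TMM (30% and 5% trimmed), the median ratio (genes averaging 10 TPM or more) and the upper quartile (75th percentile). Other alternatives were a 2-fold threshold, a pseudocount (0.1 or 1 TPM), a filter at 5 TPM, an FDR of 0.05 and the Audic-Claverie test. The computation was tested on simulated data. The tools were scipy 1.17.1 and numpy 2.4.6 for tests, matplotlib 3.10.9 for plots and pandas 2.3.3 for tables, in Python 3.11.15.

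The hepatokines, the related lists, the markers and the promoter motifs were chosen with earlier results of these data known. Named in the text are all hepatokines and, per related list, at most 4 genes with the most reads among those at least 1.5-fold different, or, where fewer than 2 differed so, those with the most reads. Some genes that this rule names are not reported here. No test of a list was made. The number of columns of sample values not used was 0.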

Additional observations from a re-analysis of the deposited data

How the results depend on the processing

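No paired analysis was possible because there is 1 library per group, and for the same reason no replicate could be left out. The number of hepatokines at least 1.5-fold higher, 4 as deposited, was 2 under each of the 4 other scalings and 2 with a 2-fold threshold, with or without the FDR criterion, and the number lower was 1 under every alternative run. Log2 ratios left their counting intervals as follows. With scaling to the sum of the listed genes, they were 0.48 for Angptl4, 0.11 for Inhbc and 0.40 for Lect2. With TMM they were 0.49, 0.12 and 0.40, with the median ratio 0.44, 0.062 and 0.35, and with the upper quartile 0.48, 0.10 and 0.39, in the same order. These scalings take off the shift of the typical gene, so each ratio is lower by construction. With a pseudocount of 1 TPM the log2 ratio of Enho was -2.82, since 0.59 TPM is below that pseudocount. No log2 ratio of a hepatokine changed sign under the alternatives run. Over all listed genes, the number higher by fold and FDR was 1928 as deposited and 1125 to 1260 under the other scalings, and the number lower was 690 and 1127 to 1236. With an FDR of 0.05 it was 2542 higher and 1033 lower, with a 2-fold threshold 1219 and 384. By fold alone, higher and lower genes numbered 2941 and 1310 as deposited, 1874 to 2054 and 2022 to 2189 under the other scalings, 1773 and 658 when only means from 5 TPM up were used, and 1589 and 582 with a 2-fold threshold. Depth limits Enho most, with 8 reads in the diabetic library.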

Other observations

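Of 13 other genes of liver-secreted factors with a value, 4 were higher and 3 lower, beside 34.4% and 15.3% of all listed genes, with a median log2 ratio of 0.23. The other scalings left 3 higher and 3 lower. Sepp1, which encodes the selenium carrier selenoprotein P, measured 3289 TPM in normal and 10422 TPM in diabetic liver (log2 ratio 1.66), and Smoc1, a secreted matrix protein, at 16.4 and 38.6 TPM (1.23). Fetub, which encodes fetuin B, was lower at 212 and 123 TPM (-0.78), and Igfbp1, a binding protein of insulin-like growth factors, at 127 and 45.8 TPM (-1.47). Beside Enho, a low ratio was also found for Igfbp2, with 650 reads in normal and 39 reads in diabetic liver (log2 ratio -4.45; 95% interval, -4.96 to -3.99). Tsku, which encodes the secreted protein tsukushi, had 47 and 428 reads (2.79). Igfbp2 and Tsku were named after their values were seen.

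Of 12 regulators of lipid and glucose genes 2 were higher and 1 lower, beside the same shares of all listed genes. Pparg measured 7.59 TPM in normal and 51.8 TPM in diabetic liver (log2 ratio 2.77), Nr1h2, a liver X receptor, at 14.5 and 24.9 TPM (0.78), and Hnf4a, a main transcription factor of hepatocytes, at 96.8 and 46.2 TPM (-1.07). Under the other scalings Nr1h2 fell below 1.5-fold.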
